A study of Rattus norvegicus with 18 samples.

Results

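The sterol and fatty acid synthesis genes are a set of 36 rat genes picked by name, and they were followed in cultured cortical neurons at 3 days of culture under a lentivirus carrying an shRNA against CHD5 and under a control lentivirus. The set holds 8 genes of the mevalonate steps, 11 genes of the steps from squalene to cholesterol, 6 genes that control the pathway through the SREBP factors or move sterol within the cell, and 11 genes of fatty acid synthesis and desaturation. Of the 36 genes, 32 had a probe of that symbol among the 22523 probes of the array, and 31 of these were kept because at least 1 of the 18 arrays detected them, among 11079 probes kept in all. Where a gene had several probes, the one with the highest mean signal was used, which applied to Tm7sf2. Mvk, Lss, Insig1 and Fasn were not analysed here. Elovl6, which lengthens saturated fatty acids, was detected on 0 of 18 arrays, with raw signals between 68.5 and 95.8 and a smallest detection p of 0.104, and it has no level here.

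Cortical neurons of embryonic rats were plated, exposed on day 1 for 6 hours to lentivirus made in HEK-293T cells from the pLKO.1 vector, and harvested on day 5, 9 or 12. Every culture received a lentivirus, either CHD5 lentivirus 1 or the control shRNA lentivirus, and the samples hold no culture without virus. Each of the 6 combinations of lentivirus and day was measured on 3 Illumina RatRef-12 arrays, lettered a, b and c, so that 18 arrays entered the comparisons. The animals' strain, sex and genotype are not stated in the labels, 1 shRNA stands for the loss of CHD5, and a cortical culture holds glia beside neurons. CHD5 itself, a chromatin remodeller of neurons, was not among the genes followed here, so its depletion was not checked in these measurements. The paper reports lower CHD5 mRNA after the knockdown. Nothing in the labels ties the letters to separate cultures, and p-values therefore measure the spread between these samples, which may be technical.

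Cells build cholesterol from acetyl-CoA. Acetyl-CoA is joined to HMG-CoA, reduced to mevalonate and turned into isoprene units, which squalene synthase pairs into squalene. Squalene is then closed to lanosterol and trimmed to cholesterol by demethylases, reductases, isomerases and desaturases. The SREBP factors, held in the endoplasmic reticulum by the Insig and Scap proteins when sterol is plentiful, switch these genes on, with SREBP2 acting mainly on sterol genes and SREBP1c, a product of Srebf1, mainly on fatty acid genes. Cholesterol hardly crosses from blood into brain, so that neurons and glia make it locally, and astrocytes supply much of what mature neurons use.

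The RefSeq promoter table, built on assembly GRCr8, held the start region of 26 of the 31 genes kept (not Acaca, Fdft1, Pmvk, Sqle and Stard4), and the 250 bases before each start were searched on both strands for 4 motifs linked to sterol genes. CCAAT, the core of the NF-Y site, lay before a start of 18 of the 26 genes, and of 36.1% of 27457 rat genes. GGGCGG, the core of the Sp1 site, lay there in 19 of the 26 genes and in 33.5% of all genes. TCACNCCAC, a sterol response element, and TCACGTGA, a palindrome that SREBP also binds, lay there in 0 of the 26 genes and in 1.09% and 0.776% of all genes, which says only that these exact letters are not in this stretch. Matches of different motifs shared no base in these windows. The windows of 3 genes that were higher under the CHD5 shRNA at day 9 and hold CCAAT are printed with that of Dhcr7, the gene with the smallest adjusted p at day 9, which holds none. Capitals mark CCAAT or its reverse complement ATTGG, and each window begins 250 bases before the start in the table and stops where the annotated gene begins.
Nsdhl, chrX:155817110-155817300, GRCr8, plus strand: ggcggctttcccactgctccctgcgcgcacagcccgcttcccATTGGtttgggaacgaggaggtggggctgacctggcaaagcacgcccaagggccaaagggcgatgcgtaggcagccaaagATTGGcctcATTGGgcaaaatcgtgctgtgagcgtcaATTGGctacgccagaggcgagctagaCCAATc
Hsd17b7, chr13:84722811-84723004, GRCr8, minus strand: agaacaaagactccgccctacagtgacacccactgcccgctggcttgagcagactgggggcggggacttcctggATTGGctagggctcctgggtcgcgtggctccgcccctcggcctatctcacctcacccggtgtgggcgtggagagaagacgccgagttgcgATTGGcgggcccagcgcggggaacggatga
Tm7sf2, chr1:212789573-212789791, GRCr8, minus strand: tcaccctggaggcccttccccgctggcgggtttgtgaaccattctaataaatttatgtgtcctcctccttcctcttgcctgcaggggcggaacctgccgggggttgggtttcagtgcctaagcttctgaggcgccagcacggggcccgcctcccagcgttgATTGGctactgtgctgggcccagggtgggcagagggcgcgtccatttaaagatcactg
Dhcr7, chr1:208444184-208444433, GRCr8, plus strand: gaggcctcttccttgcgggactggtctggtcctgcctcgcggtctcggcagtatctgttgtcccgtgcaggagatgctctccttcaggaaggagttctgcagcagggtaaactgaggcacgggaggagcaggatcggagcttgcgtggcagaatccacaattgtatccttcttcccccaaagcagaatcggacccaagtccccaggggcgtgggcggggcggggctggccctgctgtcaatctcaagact

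Nsdhl held 5 CCAAT motifs, 4 of them reversed, beginning at 208, 128, 119, 91 and 65 bases before the start. Hsd17b7 held 3, of which the printed stretch shows those at 176 and 86 bases, and Tm7sf2 held 1, at 89 bases. Of the 10 genes called at day 9, described next, 7 had a promoter entry and 4 of these held CCAAT: Nsdhl, Hsd17b7, Tm7sf2 and Mvd. CCAAT was also present in promoters of genes that did not pass the test. With 18 of the 26 genes holding it in all, it did not set the called genes apart. The arrays say nothing of binding at any of these letters.

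Levels are log2 signals after each array was scaled to the same mean and spread over the kept probes, as the study's Z-score method does, and differences are log2, CHD5 shRNA minus control, from one limma fit over all 18 arrays with Benjamini-Hochberg adjustment over 11079 probes. A gene is called when its adjusted p is under 0.05. One array stood apart: control replicate b at day 9 had a mean raw signal of 135, against 400 to 789 on the other 17 arrays, 7047 detected probes against 8360 to 9931, and a spread of log2 signals of 1.11 against 1.72 to 2.02. After scaling, its brightest probes stood above control replicates a and c of day 9, as for Hmgcs1, at 17.76 against 14.04 and 14.55. Probes near background could also stand higher, as for Acaca, at 7.15 against 6.67 and 6.94. Many probes between these stood lower, as for Aacs, at 8.84 against 9.69 and 9.60. The day 9 calls of the set are therefore given with and without this array. Gene levels in such bulk RNA cannot tell fewer cells of a type from less RNA per cell.

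At day 9, genes of cholesterol synthesis were higher in the CHD5 shRNA cultures. Of the 31 genes, 10 were called higher, where 3.65% of all probes were, and 0 were called lower, where 2.25% of all probes were. Of the 10, 9 belong to the sterol steps, in which 17 genes were measured, and 1 to the 9 fatty acid genes measured. The 10 differences lay between 0.31 and 0.87, or 1.24-fold and 1.83-fold. The median difference over the 31 genes was 0.33 against -0.017 over all kept probes, and 16 of the 31 genes were higher on all 3 CHD5 shRNA arrays than on any control array, where 12.4% of all probes were. At an unadjusted p under 0.05, 17 of the 31 were higher and 1, Srebf1, was lower. In the same cultures 7 of 10 astrocyte markers measured were called lower. Of 6 neuron markers measured, 1, Tubb3, a neuronal tubulin, was called higher, and 2 had negative differences. The part of these markers in the differences of the 31 genes was not tested. A fit of the 6 arrays of day 9 alone called 0 of the 31 genes and 0 of all probes, and centring each array on its median instead of scaling it called 1, Pmvk.

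**Figure D1:**
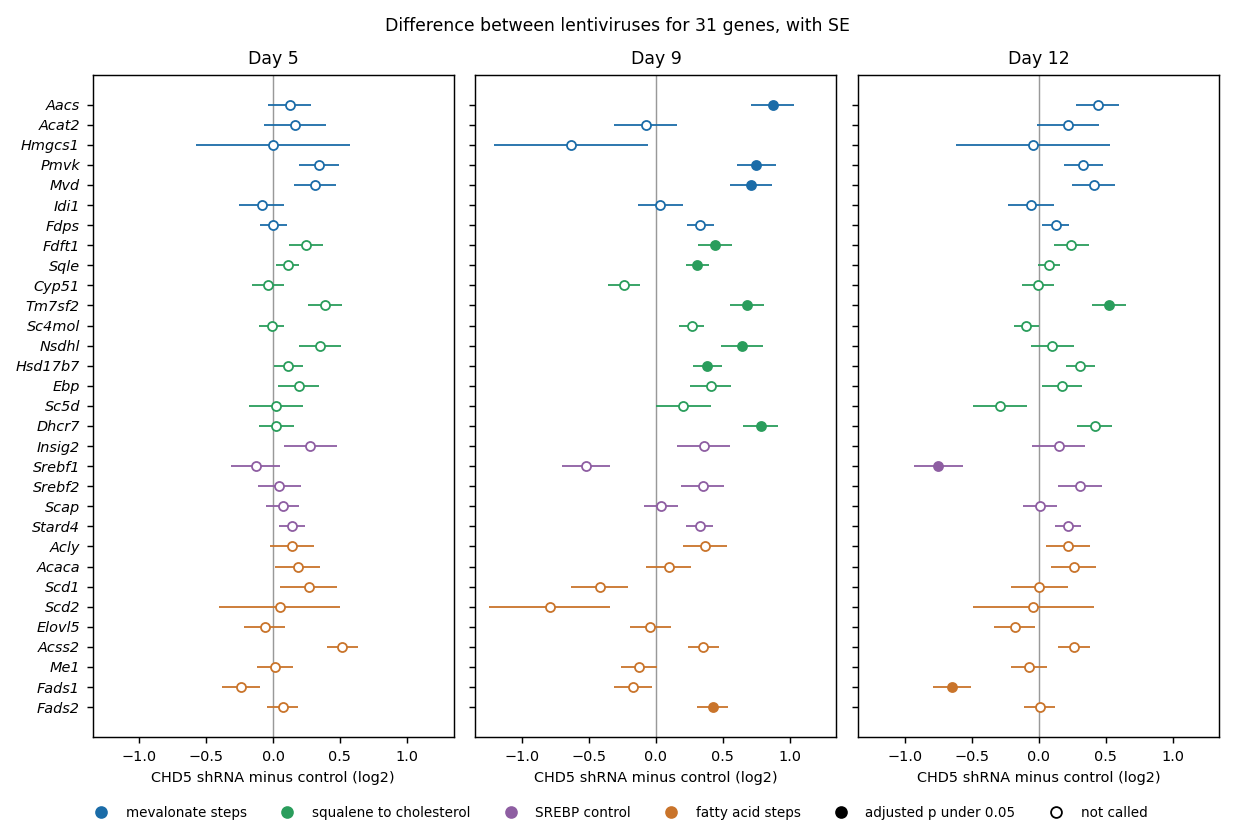
Difference between CHD5 shRNA and control arrays (log2, x axis) for each of the 31 genes (y axis, coloured by step) at days 5, 9 and 12, with bars of 1 SE from the limma fit, 3 arrays a group; filled points have an adjusted p under 0.05. At day 9, 10 filled points lie to the right of 0, at day 12 there is 1 on the right and there are 2 on the left, and at day 5 there is none.

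In the mevalonate steps, 3 of 7 genes were called at day 9. Aacs, the cytosolic acetoacetyl-CoA synthetase that feeds ketone bodies into lipid synthesis, stood at 9.69, 8.84 and 9.60 on control arrays a, b and c and at 10.22, 10.13 and 10.40 on the CHD5 shRNA arrays, a difference of 0.87 ± 0.16 (SE, adjusted p = 0.00482). Pmvk, phosphomevalonate kinase, stood at 8.52, 8.66 and 8.85 on control arrays and 9.28, 9.33 and 9.66 on CHD5 shRNA arrays, a difference of 0.75 ± 0.15 (SE, adjusted p = 0.00706). Mvd, which decarboxylates mevalonate diphosphate to the first isoprene unit, stood at 11.43, 10.76 and 11.49 on control and 11.84, 11.84 and 12.13 on CHD5 shRNA arrays, a difference of 0.71 ± 0.16 (SE, adjusted p = 0.0143). In these 3 genes all CHD5 shRNA arrays lay above all control arrays, and for Aacs and Mvd control replicate b was the lowest of the 6. Without that array the differences were 0.62 (adjusted p = 0.000613) for Aacs, 0.76 (adjusted p = 0.00408) for Pmvk and 0.49 (adjusted p = 0.0123) for Mvd, and all 3 were still called. Without CHD5 shRNA replicate c, Pmvk had an adjusted p of 0.0673 and Mvd of 0.111, while Aacs was called without any one of the 18 arrays.

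The other 4 mevalonate genes were not called. Fdps, which makes farnesyl diphosphate, differed by 0.33 ± 0.10 (SE, adjusted p = 0.0637), and Idi1, which interconverts the isoprene units, by 0.033 ± 0.17 (SE, adjusted p = 0.928). Acat2, the cytosolic thiolase of the first step, stood at 13.37, 14.84 and 13.63 on control arrays and 13.79, 13.92 and 13.91 on CHD5 shRNA arrays. Hmgcs1, HMG-CoA synthase, stood at 14.04, 17.76 and 14.55 on control arrays and 14.60, 14.92 and 14.92 on CHD5 shRNA arrays. In both, control replicate b was the highest of the 6 arrays. The difference of Acat2 was -0.076 ± 0.23 (SE, adjusted p = 0.879) with that array and 0.38 (adjusted p = 0.0267) without it, and that of Hmgcs1 -0.64 ± 0.58 (SE, adjusted p = 0.563) with it and 0.53 (adjusted p = 0.0797) without it, so the sign of both turned.

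From squalene to cholesterol, 6 of 10 genes were called at day 9. Dhcr7, which makes cholesterol from its dehydro precursor, stood at 10.81, 10.15 and 10.68 on control arrays and 11.31, 11.26 and 11.43 on CHD5 shRNA arrays, a difference of 0.78 ± 0.13 (SE, adjusted p = 0.00227). Tm7sf2, a sterol reductase that acts after the lanosterol demethylase, stood at 10.21, 9.65 and 9.99 on control and 10.62, 10.46 and 10.82 on CHD5 shRNA arrays, a difference of 0.68 ± 0.13 (SE, adjusted p = 0.00483). Nsdhl, a dehydrogenase that helps remove methyl groups from the sterol ring, stood at 9.76, 9.07 and 9.70 on control and 10.19, 10.14 and 10.13 on CHD5 shRNA arrays, a difference of 0.64 ± 0.16 (SE, adjusted p = 0.0232). The 2 groups did not overlap in any of the 3 genes. Without control replicate b the differences were 0.60 (adjusted p = 0.000279) for Dhcr7, 0.54 (adjusted p = 0.00279) for Tm7sf2 and 0.43 (adjusted p = 0.033) for Nsdhl. Dhcr7 was called without any one of the 18 arrays, Tm7sf2 had an adjusted p of 0.0511 without CHD5 shRNA replicate c, and Nsdhl was not called when any one of the 3 CHD5 shRNA arrays of day 9 was left out, with adjusted p up to 0.104. A second, dimmer probe of Tm7sf2 differed by 0.65 ± 0.18 (SE, adjusted p = 0.0439).

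Fdft1, squalene synthase, stood at 10.79, 10.24 and 10.64 on control arrays and 10.99, 11.01 and 10.999 on CHD5 shRNA arrays, a difference of 0.44 ± 0.13 (SE, adjusted p = 0.0486). Sqle, squalene epoxidase, an oxygen-using step that limits flux, stood at 11.75, 11.77 and 11.83 on control and 11.99, 12.09 and 12.18 on CHD5 shRNA arrays, a difference of 0.31 ± 0.085 (SE, adjusted p = 0.0396). Hsd17b7, the keto-sterol reductase that works with Nsdhl, stood at 8.39, 7.95 and 8.31 on control and 8.56, 8.61 and 8.63 on CHD5 shRNA arrays, a difference of 0.38 ± 0.11 (SE, adjusted p = 0.0488). The groups did not overlap in these genes either, but their adjusted p lay close to 0.05 and each lost its call when any of many single arrays was left out. With control replicate b left out, Sqle kept a difference of 0.31 (adjusted p = 0.0269), while Fdft1 had 0.29 (adjusted p = 0.0918) and Hsd17b7 0.26 (adjusted p = 0.0885). Among the 4 genes not called, Ebp, the sterol isomerase, differed by 0.41 ± 0.15 (SE, adjusted p = 0.126), and Sc4mol, now named Msmo1, the methylsterol oxidase, by 0.27 ± 0.093 (SE, adjusted p = 0.101). Sc5d, the sterol desaturase, differed by 0.20 ± 0.20 (SE, adjusted p = 0.599), and Cyp51, the lanosterol demethylase, by -0.24 ± 0.12 (SE, adjusted p = 0.278), the only negative value of the 10. With the dim array left out, Sc5d also had a negative difference, of -0.081 (adjusted p = 0.777).

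**Figure D2:**
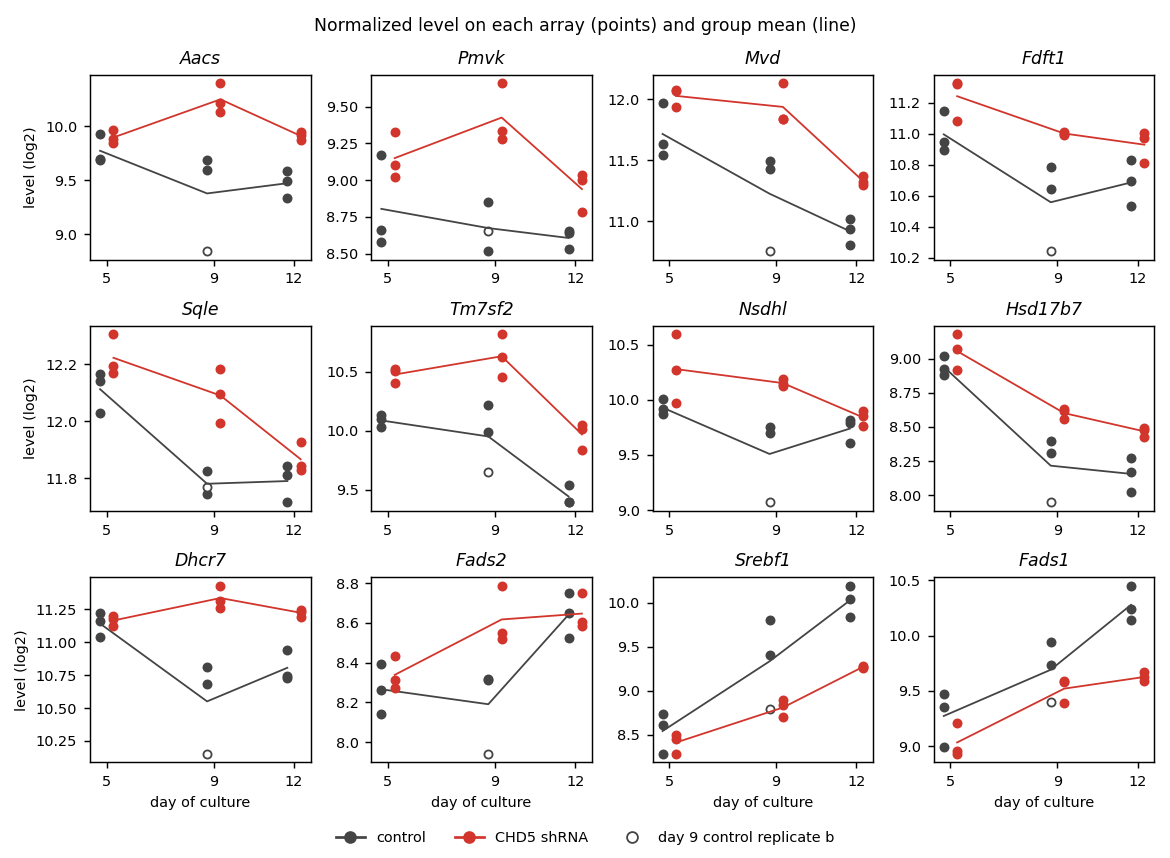
Normalized level (log2, y axis) by day of culture (x axis) on every array for the 10 genes called at day 9 and for Srebf1 and Fads1; grey points are control arrays, red points CHD5 shRNA arrays, lines join group means, and the open point is the dim array, control replicate b at day 9. At day 9 the red points lie above all grey points in the first 10 panels, and in 8 of them the open point is the lowest. At day 12 the red points of Srebf1 and Fads1 lie below all grey points.

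Among the genes of SREBP control, 0 of 5 were called at day 9, with 2 higher and 1 lower at an unadjusted p under 0.05. Srebf1 stood at 9.80, 8.79 and 9.41 on control arrays and 8.90, 8.84 and 8.70 on CHD5 shRNA arrays, a difference of -0.52 ± 0.18 (SE, adjusted p = 0.0982). Control replicate b was the lowest control and lay within the CHD5 shRNA range, and without it the difference was -0.81 (adjusted p = 0.000645). Srebf2, which encodes the SREBP of the sterol genes, stood at 6.88, 7.07 and 6.80 on control and 7.07, 7.15 and 7.58 on CHD5 shRNA arrays, a difference of 0.35 ± 0.16 (SE, adjusted p = 0.24) with no overlap between the groups. Srebf2 was dim, with raw day 9 signals of 124, 72 and 99 on control and 129, 125 and 170 on CHD5 shRNA arrays. The background of these arrays lay between 65.3 and 69.0. Insig2, which retains the SREBP complex in the endoplasmic reticulum, stood at 9.96, 8.89 and 9.93 on control and 9.99, 9.96 and 9.90 on CHD5 shRNA arrays, with a difference of 0.36 ± 0.20 (SE, adjusted p = 0.323), and of 0.0069 (adjusted p = 0.975) without control replicate b. Stard4, a carrier that moves sterol between membranes, differed by 0.33 ± 0.099 (SE, adjusted p = 0.0596), and Scap, the escort of SREBP, by 0.040 ± 0.13 (SE, adjusted p = 0.884).

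Among the fatty acid genes, 1 of 9 was called at day 9. Fads2, the first desaturase of long polyunsaturated fatty acids, stood at 8.32, 7.94 and 8.31 on control arrays and 8.55, 8.52 and 8.79 on CHD5 shRNA arrays, a difference of 0.43 ± 0.12 (SE, adjusted p = 0.0381), and of 0.31 (adjusted p = 0.0645) without control replicate b. Scd2, the stearoyl-CoA desaturase of brain, stood at 13.50, 16.38 and 13.75 on control and 13.59, 13.90 and 13.76 on CHD5 shRNA arrays. It was highest on control replicate b, and its difference was -0.79 ± 0.45 (SE, adjusted p = 0.34) with that array and 0.13 (adjusted p = 0.57) without it. Acly, which makes cytosolic acetyl-CoA from citrate, differed by 0.37 ± 0.16 (SE, adjusted p = 0.211), and Acss2, which makes it from acetate, by 0.35 ± 0.12 (SE, adjusted p = 0.0869). The other differences were 0.094 ± 0.17 for Acaca, acetyl-CoA carboxylase, -0.42 ± 0.21 for Scd1, another stearoyl-CoA desaturase, -0.043 ± 0.15 for Elovl5, which lengthens polyunsaturated chains, -0.13 ± 0.14 for Me1, the malic enzyme that supplies NADPH, and -0.17 ± 0.14 for Fads1, the second desaturase of polyunsaturated chains. The median difference was 0.33 in the mevalonate steps, 0.40 from squalene to cholesterol, 0.33 in SREBP control and -0.043 in the fatty acid genes. Without control replicate b these medians were, in the same order, 0.49, 0.27, 0.081 and 0.13, so the sign of the fatty acid median turned.

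Left without control replicate b, day 9 still had 10 of 31 genes called, of which 7 were also called with it. In that fit 8 were higher, where 4.02% of all probes were, and 2 were lower, where 6.6% of all probes were. Fdft1, Hsd17b7 and Fads2 were no longer called, and Acat2, higher, and Srebf1 and Me1, lower, were called in their place, Me1 with a difference of -0.33 (adjusted p = 0.0473). All 8 higher genes belong to the sterol steps, and the median over the 31 genes was 0.26 against 0.034 over all probes. Of the other arrays, CHD5 shRNA replicate c at day 9 moved the count most: without it 2 genes, Aacs and Dhcr7, were called. The count was 5 with replicate a of that group dropped and 6 with replicate b dropped. It was also 6 when control replicate b or CHD5 shRNA replicate c of day 5 was dropped. The same held for control replicate c and CHD5 shRNA replicates a and c of day 12, each dropped alone. Calls over all 11079 probes fell as well, from 404 higher and 249 lower in the fit of all arrays. In either direction, they numbered 98 with replicate c of the day 9 CHD5 shRNA group dropped, 226 with replicate a and 567 with replicate b. For the arrays of days 5 and 12 just named, they numbered 518 to 538. The drop in calls was therefore not confined to the 31 genes.

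**Figure D3:**
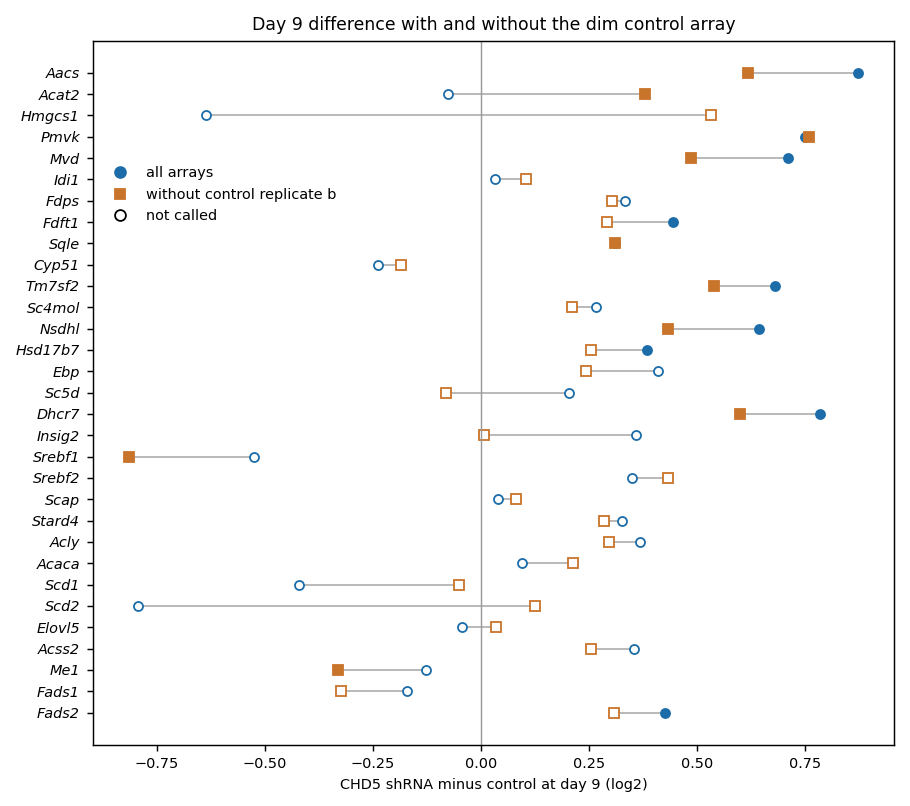
Day 9 difference between CHD5 shRNA and control (log2, x axis) for each gene (y axis), from the fit of all 18 arrays (circles) and the fit without control replicate b (squares), joined by a line; filled marks have an adjusted p under 0.05. The sterol genes called in both fits stay to the right of 0, while Hmgcs1, Acat2, Scd2, Sc5d and Elovl5 cross 0.

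At day 12, 3 of the 31 genes were called. One was higher, where 2.23% of all probes were called higher, and 2 were lower, where 3.24% were called lower. Tm7sf2 stood at 9.40, 9.54 and 9.39 on control arrays and 10.02, 10.05 and 9.83 on CHD5 shRNA arrays, a difference of 0.53 ± 0.13 (SE, adjusted p = 0.0182). Srebf1 stood at 10.19, 10.04 and 9.84 on control and 9.26, 9.29 and 9.27 on CHD5 shRNA arrays, a difference of -0.75 ± 0.18 (SE, adjusted p = 0.0187). Fads1 stood at 10.45, 10.14 and 10.24 on control and 9.59, 9.67 and 9.62 on CHD5 shRNA arrays, a difference of -0.65 ± 0.14 (SE, adjusted p = 0.00966). The groups did not overlap in any of the 3. The dimmer probe of Tm7sf2 differed by 0.42 ± 0.18 (SE, adjusted p = 0.254).

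The sterol genes that were called at day 9 had positive differences at day 12 as well, and of these Tm7sf2 alone was called. In the fit of all arrays the day 12 differences were smaller in all 9. That did not hold without control replicate b of day 9, where the difference of Hsd17b7 was larger at day 12 than at day 9. Dhcr7 stood at 10.94, 10.74 and 10.73 on control arrays and 11.23, 11.24 and 11.19 on CHD5 shRNA arrays, a difference of 0.42 ± 0.13 (SE, adjusted p = 0.0722). Aacs stood at 9.34, 9.49 and 9.59 on control and 9.95, 9.87 and 9.92 on CHD5 shRNA arrays, a difference of 0.44 ± 0.16 (SE, adjusted p = 0.148), and Mvd at 10.81, 10.94 and 11.02 on control and 11.37, 11.32 and 11.30 on CHD5 shRNA arrays, a difference of 0.41 ± 0.16 (SE, adjusted p = 0.177). No array of one group reached the other in these 3 genes. Hsd17b7 differed by 0.31 ± 0.11 (SE, adjusted p = 0.133) and Pmvk by 0.33 ± 0.15 (SE, adjusted p = 0.263), also without overlap, whereas Nsdhl, at 0.10 ± 0.16, and Sqle, at 0.076 ± 0.085, overlapped. Over the 31 genes, 12 were higher on all CHD5 shRNA arrays than on any control array, where 19.9% of all probes were, and the median difference was 0.13 against 0.0081 over all probes. The median was 0.22 in the mevalonate steps, 0.14 from squalene to cholesterol and 0.0038 in the fatty acid genes. Fads2, called at day 9, had a difference of 0.0057 ± 0.12 at day 12, and the 28 genes not called lay between -0.29 for Sc5d and 0.44 for Aacs.

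The count at day 12 also changed with single arrays. Without control replicate b of day 9, 7 genes were called: the 3 above and Aacs, at 0.45 (adjusted p = 0.00224), Mvd, at 0.42 (adjusted p = 0.0113), Hsd17b7, at 0.32 (adjusted p = 0.0151), and Dhcr7, at 0.43 (adjusted p = 0.00122), with 6.13% of all probes called higher and 6.9% lower. Without control replicate a of day 12, 0 were called, and without CHD5 shRNA replicate a or b of day 12, 1 was. Tm7sf2 lost its call without control replicate a or c or CHD5 shRNA replicate a or b, with adjusted p up to 0.087, Srebf1 without control replicate a or b or any CHD5 shRNA replicate, with adjusted p up to 0.11, and Fads1 without control replicate a, at 0.0711. Fitted on the 6 arrays of day 12 alone, 15 of the 31 genes were called, 12 higher and 3 lower, and with median centring 0. The share of all probes called in these fits is not given here, so the counts cannot be read as particular to the set. The differences of Tm7sf2, Srebf1 and Fads1 kept their sign without any one array.

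At day 5, limma called 0 of the 31 genes, where 0.171% of all probes were called in either direction, with 4 genes higher and 0 lower at an unadjusted p under 0.05. Acss2 came closest: it stood at 8.0, 8.12 and 8.08 on control arrays and 8.80, 8.58 and 8.38 on CHD5 shRNA arrays, a difference of 0.52 ± 0.12 (SE, adjusted p = 0.0928). Tm7sf2 stood at 10.03, 10.13 and 10.10 on control and 10.40, 10.50 and 10.52 on CHD5 shRNA arrays, a difference of 0.39 ± 0.13 (SE, adjusted p = 0.404). These genes, with Sqle and Insig2, were higher on all CHD5 shRNA arrays than on any control array, that is 4 of 31 genes where 5.15% of all probes were. Acss2 was called at day 5 under quantile normalization, under neqc, with a stricter detection filter, with the arrays paired by letter within a day (adjusted p = 0.0449), and with both measurements of replicate a averaged. Leaving out the dim day 9 control array gave Acss2 0.53 (adjusted p = 0.00844) and Tm7sf2 0.40 (adjusted p = 0.0427), both called. Aacs, at 0.12 ± 0.16, and Dhcr7, at 0.024 ± 0.13, the genes with the firmest difference at day 9, had no difference beyond their error at day 5, and the 31 genes lay between -0.24 for Fads1 and 0.52 for Acss2, with a median of 0.11 against 0.0070 over all probes.

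Whether the difference between lentiviruses itself changed with time was tested as the change of that difference. From day 5 to day 9, limma called 0 of the 31 genes, and 0% of all probes, with 5 genes higher and 1 lower at an unadjusted p under 0.05. The lowest adjusted p was that of Dhcr7, whose difference grew by 0.76 ± 0.18 (SE, adjusted p = 0.26), and that of Aacs grew by 0.75 ± 0.23 (SE, adjusted p = 0.382). Without control replicate b of day 9 Dhcr7 was called in this test, as the only one of the 31, with 0.57 (adjusted p = 0.0367). From day 5 to day 12, 0 of the 31 genes were called, where 0.153% of all probes were, with 1 higher, Dhcr7, and 1 lower, Srebf1, at an unadjusted p under 0.05, and none of the alternatives tried gave a call there. The change for Srebf1 was -0.62 ± 0.26 (SE, adjusted p = 0.581).

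With time in culture, sterol genes fell and part of the fatty acid genes rose under the control lentivirus. Between day 5 and day 12, 10 of 31 genes were called lower, where 12.5% of all probes were, and 5 were called higher, where 11.1% of all probes were. Of the 10, 9 were sterol genes and the other was Stard4; of the 5, 4 were fatty acid genes and the other was Srebf1. Srebf1 rose most, from 8.73, 8.61 and 8.28 at day 5 to 10.19, 10.04 and 9.84 at day 12, by 1.48 ± 0.18 (SE, adjusted p = 6.77e-06), or 2.79-fold. Me1 rose by 1.33 ± 0.14 (SE, adjusted p = 8.12e-07), Fads1 by 1.01 ± 0.14 (SE, adjusted p = 3.59e-05), Scd1 by 0.94 ± 0.21 (SE, adjusted p = 0.00316) and Fads2 by 0.37 ± 0.12 (SE, adjusted p = 0.025). Idi1 fell most among the sterol genes, from 11.84, 11.82 and 11.01 to 10.61, 10.37 and 10.58, with a change of -1.04 ± 0.17 (SE, adjusted p = 0.000169). The changes were -0.79 ± 0.16 for Mvd, -0.78 ± 0.11 for Hsd17b7, -0.69 ± 0.10 for Fdps, -0.69 ± 0.15 for Ebp, -0.64 ± 0.13 for Tm7sf2 and -0.84 ± 0.099 for Stard4, and smaller for Sc4mol, Cyp51 and Sqle, all called. Of the 17 sterol genes, 16 had a negative change, with a median of -0.34 against -0.020 over all probes.

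The CHD5 shRNA cultures went through changes of the same kind. Between day 5 and day 12, 10 of 31 genes were called lower in them, where 8.56% of all probes were, and 4 were called higher, where 8.46% were. Srebf1 went from 8.45, 8.49 and 8.29 at day 5 to 9.26, 9.29 and 9.27 at day 12, a rise of 0.86 ± 0.18 (SE, adjusted p = 0.00265), beside 1.48 under control. Fads1 rose by 0.59 ± 0.14 (SE, adjusted p = 0.00673), beside 1.01 under control, and Me1 by 1.24 ± 0.14 (SE, adjusted p = 3.78e-06), beside 1.33. Idi1 changed by -1.01 ± 0.17, Ebp by -0.71 ± 0.15, Mvd by -0.70 ± 0.16 and Stard4 by -0.76 ± 0.099, all called. Aacs changed by 0.014 ± 0.16 and Dhcr7 by 0.058 ± 0.13, neither called, beside -0.30 and -0.34 under control, also not called. Whether the changes differed between lentiviruses is the same test as the change of the difference from day 5 to day 12, which called 0 genes.

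**Figure D4:**
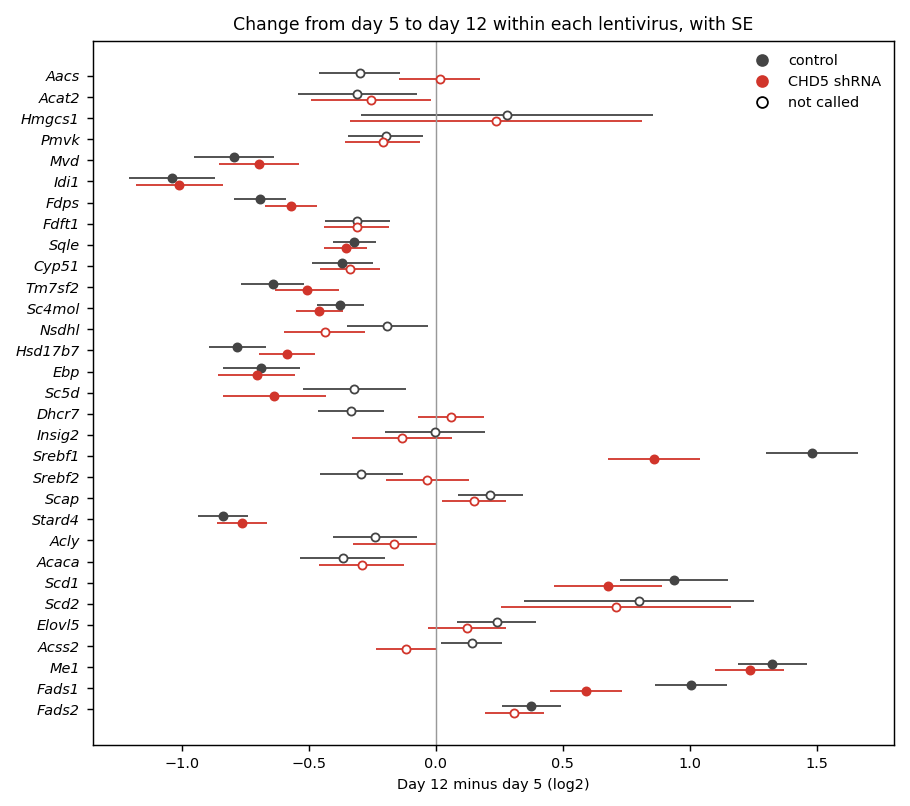
Change from day 5 to day 12 (log2, x axis) of each gene (y axis) in control cultures (grey) and CHD5 shRNA cultures (red), with bars of 1 SE from the limma fit, 3 arrays a group; filled points have an adjusted p under 0.05. Most sterol genes lie left of 0 in both, and Srebf1, Scd1, Me1 and Fads1 lie right of 0 in both.

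Much of the control change was present by day 9, a comparison that uses the same day 5 arrays. Under control, 11 genes were called lower at day 9 than at day 5, where 12.8% of all probes were, and 5 higher, where 9.18% were. Dhcr7 changed by -0.59 ± 0.13 (SE, adjusted p = 0.00355), Hsd17b7 by -0.72 ± 0.11 (SE, adjusted p = 0.000181) and Sc4mol by -0.47 ± 0.093 (SE, adjusted p = 0.00155). Leaving out the dim array, these changes were -0.40 (adjusted p = 0.00336), -0.60 (adjusted p = 9.62e-05) and -0.42 (adjusted p = 0.00221). Under the CHD5 shRNA, 3 genes, Idi1, Hsd17b7 and Stard4, were called lower, where 4.72% of all probes were, and 2, Me1 and Fads1, higher, where 4.61% were. There, Dhcr7 changed by 0.17 ± 0.13 (SE, adjusted p = 0.46) and Aacs by 0.35 ± 0.16 (SE, adjusted p = 0.186). When control replicate b of day 9 was left out, the control count was 12, with Mvd, Fdft1, Sc5d and Acly no longer called. Of these 12, 5 were higher, where 10.6% of all probes were, and 7 lower, where 10.1% were. In that fit the CHD5 shRNA count was 13, all 5 earlier calls among them. Of these 13, 8 were higher, where 11.4% of all probes were, and 5 lower, where 13.9% were. The control count was 9 without control replicate b of day 5, and the CHD5 shRNA count was 1 to 3 when any one of its own 6 arrays of these days was left out.

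Other genes of the pathway, from lists of sterol uptake, efflux and turnover, further sterol synthesis, isoprenoid use and fatty acid use and storage, gave calls in both directions. Of 9 genes of further sterol synthesis, 1, not named here, was called higher at day 9, where 3.65% of all probes were. At day 12, where 2.23% of all probes were called higher, 1 was called, Mbtps1, the protease that first cuts SREBP. It was higher by 0.39 ± 0.098 (SE, adjusted p = 0.0255). Of 9 genes of isoprenoid use, Fntb, a farnesyltransferase subunit, was higher at day 9, by 0.58 ± 0.14 (SE, adjusted p = 0.0183) and without control replicate b by 0.37 (adjusted p = 0.0127), and Ggps1, which makes geranylgeranyl diphosphate, was lower at day 12, at -0.48 ± 0.087 (SE, adjusted p = 0.00262). With the dim array left out, 1 of the further sterol synthesis genes was higher at day 9 and 2 were at day 12. Of the isoprenoid genes, 1 was then higher and 1 lower at day 9, and 1 was higher and 2 lower at day 12.

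Of 16 genes of uptake, efflux and turnover, 2 were called at day 9, both lower. Apoe, the lipid carrier that brain cells, chiefly astrocytes, secrete, stood at 12.03, 13.93 and 12.41 on control arrays and 11.21, 11.12 and 10.61 on CHD5 shRNA arrays, a difference of -1.81 ± 0.31 (SE, adjusted p = 0.00337), and of -1.27 (adjusted p = 8.77e-05) without control replicate b. Abca1, which exports cholesterol, differed by -0.35 ± 0.092 (SE, adjusted p = 0.0339), and by -0.37 (adjusted p = 0.0158) without that array. At day 12, 0 of the 16 were called by limma, with 1 higher and 2 lower at an unadjusted p under 0.05, and 1 was called lower when that array of day 9 was left out. Of 28 genes of fatty acid use and storage, 2 were called lower at day 9, where 2.25% of all probes were, and 4 at day 12, where 3.24% were. Leaving out control replicate b of day 9 changed these counts to 9 lower and 1 higher at day 9, where 6.6% and 4.02% of all probes were called, and to 7 lower and 1 higher at day 12, where 6.9% and 6.13% were. Lpl, lipoprotein lipase, which frees fatty acids from lipoproteins, stood at 10.84, 9.92 and 10.81 on control arrays and 8.68, 8.88 and 8.33 on CHD5 shRNA arrays at day 9, a difference of -1.89 ± 0.19 (SE, adjusted p = 3.71e-05), after -1.32 ± 0.19 (SE, adjusted p = 0.00485) at day 5 and before -1.79 ± 0.19 (SE, adjusted p = 2.59e-05) at day 12. Its groups did not overlap on any day, and at day 9 its difference was -2.24 (adjusted p = 4.78e-09) without control replicate b. Cpt1a, which admits fatty acids to mitochondria, differed by -0.87 ± 0.16 (SE, adjusted p = 0.00432) at day 9, by -1.10 (adjusted p = 3.04e-05) without that array, and by -1.06 ± 0.16 (SE, adjusted p = 0.000597) at day 12. Also lower at day 12 were Acadvl, of mitochondrial oxidation, and Dgat2, of triglyceride storage, at -0.53 ± 0.14 (SE, adjusted p = 0.0268) and -0.62 ± 0.17 (SE, adjusted p = 0.042).

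Markers of other cells moved with the lentivirus. Of 12 astrocyte markers, 10 were measured, and 7 of these were lower under the CHD5 shRNA at day 9 and 7 at day 12, with medians of -1.02 and -0.76, while 0 were called at day 5 by limma, with 1 lower at an unadjusted p under 0.05. Without control replicate b of day 9 the counts were 7 at day 9 and 8 at day 12. Glul and Aldh1l1 were not among those measured. The summed linear level of the 10 ranged from 8664 to 9272 on control arrays of day 5 and from 6963 to 7274 on CHD5 shRNA arrays, from 28664 to 120041 and from 17457 to 22549 at day 9, and from 49813 to 51971 and from 26462 to 27982 at day 12. Control replicate b gave the highest value of day 9. Of the 6 neuron markers measured, Tubb3 was the 1 called higher at day 9, by 0.55 ± 0.13, and at day 12, by 0.53 ± 0.13, and with the dim array left out by 0.59 (adjusted p = 0.00772) and 0.54 (adjusted p = 0.00424). In the fit of all arrays, 2 of the 6 neuron markers had negative differences at day 9 and 3 at day 12, none called. The neuron list summed to between 18343 and 47976 on control arrays and between 21870 and 23481 on CHD5 shRNA arrays at day 9. Control replicate b gave the 47976, with Stmn2 at 15.20 against 12.76 and 13.24 on replicates a and c. The day 9 medians of the list did not overlap, at 10.61 to 10.90 on control and 11.27 to 11.30 on CHD5 shRNA arrays.

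Of 9 oligodendrocyte lineage markers measured, 2 were lower at day 9 and 2 at day 12, with Cnp among them on both days. With the dim array left out, 3 were lower and 1 higher at day 9 and 2 were lower at day 12. At day 9 their summed level ran from 13088 to 36903 on control arrays and from 12937 to 14304 on CHD5 shRNA arrays. Control replicate b gave that highest value, and Mag was not detected on any array. Of 3 fibroblast markers, 2 were lower at day 9 and 2 at day 12, with sums of 495 to 653 against 267 to 407 at day 9, and Col1a1 and Col3a1 were not kept. The fibroblast counts were also 2 and 2 with the dim array left out. Microglia and endothelial markers, 2 of each, gave 0 calls in limma on any day with or without that array and had 0 with an unadjusted p under 0.05 in the fit of all arrays, with microglia sums of 157 to 261 against 171 to 176 at day 9. Of 3 proliferation markers, 0 were called on any day in the fit of all arrays, with 2, Cdc2a and Ccna2, lower at an unadjusted p under 0.05 at day 5. With the dim array left out, these 2 were called lower at day 5, at -0.57 (adjusted p = 0.00187) and -0.48 (adjusted p = 0.00268), and Cdc2a at day 12, at -0.28 (adjusted p = 0.0419). The part of these shifts in cell markers in the differences of the sterol and fatty acid genes was not tested. The sterol genes and the astrocyte markers differed in opposite directions between the lentiviruses on day 9, and between day 5 and day 12 all 10 astrocyte markers measured were called higher, and 9 of 17 sterol genes lower, under each lentivirus.

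**Figure D5:**
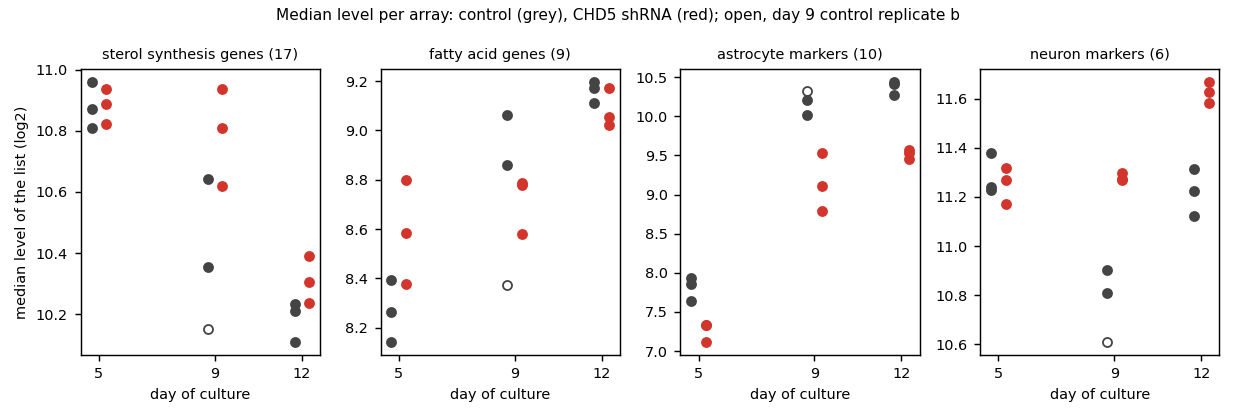
Median level (log2, y axis) of 4 gene lists on each array by day of culture (x axis), for control (grey) and CHD5 shRNA (red) arrays; the open point is control replicate b of day 9. The astrocyte medians of the red points lie below all grey points on each day, from 8.79 to 9.53 against 10.02 to 10.33 at day 9, and the sterol medians lie between 10.11 and 10.96 on all 18 arrays.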

How the data were processed

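Total RNA of 18 samples was hybridised to Illumina RatRef-12 arrays. The authors deposited mean bead signal intensity and a detection p-value for each probe, read with GenomeStudio 1.1.1 without normalization or background subtraction, and for their tests they kept the probes that 1 or more arrays detected at a limit of 0.02 and scaled them to Z-scores. The same filter was applied here, log2 intensities were scaled to equal mean and spread per array, and 9 contrasts were fitted in R 4.3.3 with limma 3.58.1 (lmFit, eBayes, Benjamini-Hochberg over 11079 probes), 3 arrays a group. Replicate a of each group has a repeat measurement, and these 6 columns entered an alternative only. The number of arrays limits the precision. The fits were tested on simulated data with the same noise on every array. No simulated array was dim like control replicate b of day 9, so that test says nothing about its effect.

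The members and lists were chosen with earlier results of these data known. Every member may be named, and values per array are given for members called between lentiviruses and for the 3 members of each step group with the greatest day 9 or day 12 difference. Other pathway genes are named where called at day 9 or 12, apart from some that are not reported here. Deviations of same-letter arrays of the 2 lentiviruses were correlated for letters a, b and c in turn. Day 5 gave 0.27, 0.17 and 0.38, day 9 gave 0.43, 0.15 and -0.20, while day 12 gave 0.047, 0.15 and 0.014. These values do not settle whether a shared letter pairs arrays, which the labels leave unstated. The main fit therefore paired no arrays by letter on any day, day 5 included. Letters entered only in the alternatives with replicate blocks, which covered all days. Alternatives were quantile normalization, neqc with an offset of 16, median centring, no or a stricter detection filter, a fit of the compared groups alone, array weights, replicate blocks, averaged repeats, the dimmer of 2 probes, a minimum difference of 0.58 and each array left out.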

Additional observations from a re-analysis of the deposited data

How the results depend on the processing

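The differences of the genes called between lentiviruses kept their sign under every alternative tried, but counts of calls did not hold. At day 9, 10 genes were called, and 1 under median centring, 5 without a detection filter, 0 with the compared arrays alone, 4 with array weights, 6 with a difference of at least 0.58, and 2 to 11 with single arrays left out. At day 12, 3 were called, and 6 under quantile normalization, 6 under neqc, 0 under median centring, 15 with the compared arrays alone, 15 with array weights, and 0 to 7 with single arrays left out. At day 5, 0 were called, and 1 each under quantile normalization, neqc, detection on all 3 arrays of a group and averaged repeats, and 0 to 2 with single arrays left out. For control day 9 against day 5, 16 were called, and 9 under median centring, 10 without a filter, 1 with the compared arrays alone, 7 with weights, 8 with the minimum difference, and 9 to 20 with single arrays left out. For CHD5 shRNA day 9 against day 5, 5 were called, and 12 under quantile normalization, 2 under median centring, 10 under neqc, 1 without a filter, 13 with the compared arrays alone, 17 with weights, 2 with the minimum difference, and 1 to 13 with single arrays left out. For CHD5 shRNA day 12 against day 5, 14 were called, 7 under median centring, and 11 to 20 with single arrays left out, and for control day 12 against day 5, 15, and 13 to 20. The change of the difference from day 5 to day 9 gave 0 calls, and 0 to 1 with single arrays left out. The number of all probes called also changed with the setting, and its share is not given beside these counts. The cause was not tested.

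With a replicate block by day and letter, 1 gene was called at day 5 (Acss2), 12 at day 9 (Fdps and Stard4 added) and 4 at day 12 (Dhcr7 added). With the letter alone as the replicate block, across days, the counts were 0, 8 and 3. No count within a lentivirus over time moved by over 1.5-fold under either block. The 3 arrays a group, and at day 9 the low signal of control replicate b, limit which differences could be called.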
